A study of Mus musculus with 12 samples.

Results

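Fragments of the 3′ end of the mitochondrial 16S rRNA were taken from the sequences called mito-piRNAs in mouse embryonic gonadal cells. A fragment was included when it matched the mouse mtDNA (GRCm39) without a mismatch on the forward strand, lay mostly within mt-Rnr2, the gene of the 16S rRNA (chrM:1094-2675), and began between position 2600 and position 2675. The rule used position only, not abundance. It chose 11 of the 204 unique sequences, with 19965 of all 403352 reads (4.95%). They made up 13.4% of the reads placed in mt-Rnr2.

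The 16S rRNA is the RNA core of the large subunit of the mitochondrial ribosome. It is cut out of a long transcript in which tRNA genes flank the rRNA and protein-coding genes, and the cut at the 5′ end of the tRNA-Leu encoded by mt-Tl1 releases its 3′ end. piRNAs are small RNAs that guide PIWI proteins, mainly in germ cells, and many of them begin with a uridine.

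The libraries came from CD1 embryos, in which gonads had been separated with anti-CD15 magnetic beads into primordial germ cells (PGCs) and somatic gonadal cells (SCs). Each cell type was collected from female and male embryos on 3 embryonic days (E11.5, then E12.5 and lastly E13.5), with gonads of several litters pooled, and each of these 12 conditions was sequenced as 1 small-RNA library. Libraries are named by cell type, day and sex, so that PGC11F is the library of female PGCs at E11.5. No genotype or treatment differed between the groups. No condition was replicated, so a p-value of cell type or sex (6 libraries against 6) or of day (4 libraries each) measures the spread over libraries that also differ in the other factors. The files list no mRNA, so the cell type could not be checked against marker genes. The enrichment of each fraction rests on the authors' staining.

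The 8 fragments that ended at the last base of mt-Rnr2 are printed first, because the shared end and the stepped start are what the counts below turn on. Each line gives the position on the mtDNA and the sequence as DNA letters, 5′ to 3′, on the forward strand. Capitals mark the 19 bases that all 8 share.
chrM:2643-2675: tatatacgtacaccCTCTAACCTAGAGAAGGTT
chrM:2644-2675: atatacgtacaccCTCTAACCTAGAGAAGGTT
chrM:2645-2675: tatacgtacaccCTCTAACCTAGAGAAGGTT
chrM:2646-2675: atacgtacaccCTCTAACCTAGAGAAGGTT
chrM:2647-2675: tacgtacaccCTCTAACCTAGAGAAGGTT
chrM:2648-2675: acgtacaccCTCTAACCTAGAGAAGGTT
chrM:2655-2675: ccCTCTAACCTAGAGAAGGTT
chrM:2657-2675: CTCTAACCTAGAGAAGGTT

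The other 3 fragments matched past the end of mt-Rnr2 into mt-Tl1 (chrM:2676-2750, tRNA-Leu), which begins at the next base. They are printed because their match crosses the boundary at which the rRNA and the tRNA are separated. For chrM:2657-2676 this rests on its last base alone, an A, which is taken up below. Capitals mark the bases that lie in mt-Tl1.
chrM:2657-2676: ctctaacctagagaaggttA
chrM:2665-2681: tagagaaggttATTAGG
chrM:2666-2681: agagaaggttATTAGG

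The mtDNA around the boundary reads as follows, with mt-Tl1 in capitals.
chrM:2636-2695: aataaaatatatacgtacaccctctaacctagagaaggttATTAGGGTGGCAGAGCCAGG

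The 8 fragments with the shared end held 18177 reads, 91.0% of the reads of the 11 fragments, and the 3 whose match crossed the boundary held 1788 reads (8.96%). In contrast to the common 3′ end, the 5′ ends stood at 10 positions. They fell into a run of 6 neighbouring positions, 2643 to 2648, and a scattered remainder at 2655, 2657, 2665 and 2666. The 6 fragments of the run were 28 to 33 nt long and carried 15850 reads (79.4%). The 21-nt and 19-nt fragments with the same 3′ end carried 2327 reads (11.7%).

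No fragment began between 2600 and the first of these positions, 2643. The nearest one outside the chosen range was a 19-nt sequence at chrM:2566-2584 with 645 reads in 5 libraries. At the other limit, 5 sequences began at position 2676, the first base of mt-Tl1, with 1516 reads in 4 libraries. PGC12M had 915 of those reads, PGC13M 336, PGC11M 178 and SC13M 87, while the other 8 libraries listed none. With fewer reads in all, the sequences beginning downstream of the boundary were thus seen in fewer libraries than the group upstream of it, of which every library listed at least 1.

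The 31-nt fragment at chrM:2645-2675 held the most reads of the 11 (5292 reads, 26.5%) and was the only one listed in all 12 libraries. In PGCs it had 266 reads in PGC11F, 680 in PGC11M, 351 in PGC12F, 305 in PGC12M, 673 in PGC13F and 789 in PGC13M. In SCs it had 235 reads in SC11F, 469 in SC11M, 113 in SC12F, 395 in SC12M, 594 in SC13F and 422 in SC13M. It was the highest of the 11 fragments in 12 of 12 libraries. Per 1000000 total reads of the library (rpm) it ran from 19.1 rpm in SC12F to 148 rpm in PGC13M, with a median of 79.4 rpm. The groups overlapped by cell type and by sex. The E12.5 libraries (19.1 to 70.3 rpm) lay below the E13.5 libraries (88.5 to 148 rpm). Those of E11.5 (38.6 to 140 rpm) overlapped both. This order was not particular to the fragment. Over all listed mito-piRNA sequences, the E12.5 libraries had 16061 to 28149 reads and the E13.5 libraries 36428 to 59545. The edgeR test described below did not call the fragment by day.

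The 29-nt fragment at chrM:2647-2675, with 3469 reads in 11 libraries, was the next most abundant in 10 of the 11 libraries that listed it. Its lowest, median and highest levels over the 12 libraries were 0, 53.7 and 99.2 rpm. In PGC13M the 32-nt fragment at chrM:2644-2675 took that place instead, with 496 reads against 452. Over all libraries the 32-nt fragment had 2932 reads in 11 libraries and a median of 39.02 rpm. The 30-nt fragment at chrM:2646-2675 lay between these neighbours with 2234 reads in 11 libraries and a median of 29.9 rpm. The 33-nt fragment at chrM:2643-2675 had 1761 reads in 9 libraries and a median of 25.8 rpm.

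Along the run the reads climbed from 2643 to a peak at 2645, were fewer at 2646, more again at 2647 and fewest at 2648, and this order recurred across libraries. The fragment from 2645 exceeded that from 2644 in 11 of 11 libraries listing both, and that from 2646 in 11 of 11. The fragment from 2647 exceeded that from 2646 in 11 of 11. The fragment from 2644 exceeded that from 2643 in 9 of 9. These libraries are not replicates of a condition, so the counts describe how often the order recurred. Relative to the 31-nt fragment of the same library, the 29-nt fragment stood between 0.573 and 0.761 (median 0.670). The 32-nt fragment stood between 0.408 and 0.645 (median 0.575), the 30-nt fragment between 0.302 and 0.497 (median 0.453), and the 33-nt fragment between 0.291 and 0.429 (median 0.387). The ranges of the 29-nt and the 30-nt fragments did not overlap, while the 32-nt range overlapped both.

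Few reads began at the last position of the run. The 28-nt fragment at chrM:2648-2675 was listed only in the males at E11.5, with 90 reads in PGC11M and 72 in SC11M. That was 0.132 and 0.154 of the 31-nt fragment of the same libraries. The 21-nt fragment at chrM:2655-2675 was listed in PGC11M (98 reads), PGC13M (93 reads) and SC11M (103 reads), all male. The authors had dropped sequences under 10 CPM (reads per 1000000), and the lowest count listed in a library was between 66 and 109 reads, or 14.6 to 17.8 rpm of the totals used here. A fragment below that level is missing from a library's list, so its absence is no measurement of 0. That count is the lowest seen in a list, so the cut-off itself may lie below it.

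The 19-nt fragment at chrM:2657-2675, which consists of the shared bases alone, had 2033 reads in 11 libraries. Its lowest, median and highest levels were 0, 29.0 and 56.7 rpm. Relative to the 31-nt fragment it varied more than the members of the run, from 0.169 in PGC13F to 0.557 in SC11F. The lowest value outside PGC13F was 0.313, in PGC11M. PGC13F was also the only library to list the same fragment with 1 further base, the 20-nt chrM:2657-2676, at 145 reads against 114 for the 19-nt form. The 2 forms together came to 0.385 of the 31-nt fragment there, within the range of the other libraries.

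The base after position 2675 in the mtDNA is an A. PGC13F stood apart in its last bases over all exactly matching sequences, since 39.3% of their reads ended in A, against 2.81% to 8.28% in the other 11 libraries. The adapter sequence that the authors removed also begins with A, and an overlap of 1 base was enough for removal. Under that setting a read ending at position 2676 would lose its A and be listed as ending at position 2675, so a 3′ end at the last base of the rRNA and one a single base further on cannot be told apart in a trimmed library. In PGC13F the final A of the 20-nt fragment is its only base in mt-Tl1, so a copied base and an added one, and with them whether this fragment crosses the boundary, cannot be told apart. Whether PGC13F was trimmed differently was not tested. The shared end itself was kept in PGC13F, where 2278 of the 2423 reads of the 11 fragments (94.0%) stopped at position 2675.

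Of the fragments whose match crossed the boundary, the 17-nt chrM:2665-2681 had the most reads, 1563 in 8 libraries. It took 11 bases from the rRNA and 6 from the tRNA. All 6 male libraries listed it, at 295 reads in PGC11M, 99 in PGC12M, 291 in PGC13M, 243 in SC11M, 148 in SC12M and 215 in SC13M. Of the 6 female libraries, PGC12F listed 100 reads and SC13F listed 172. The levels in the male libraries, 19.1 to 60.7 rpm, overlapped those of the 2 female libraries, 16.9 and 25.6 rpm.

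Relative to the 31-nt fragment, the 17-nt fragment stood at 0.285 and 0.290 in the 2 female libraries that listed it and between 0.325 and 0.518 in the 6 male ones. At the lowest of these ratios the fragment would have had 75.8 reads in PGC11F, 67.0 in SC11F and 32.2 in SC12F. These counts lie under the lowest count listed in each of those libraries, 109, 90 and 87 reads. At the median of the ratios the counts would have been 98.9, 87.4 and 42.0 reads, again under it. At the ratio of the male library matched in day and cell type the counts would have been 115 reads in PGC11F and 122 in SC11F, above it, and 42.3 in SC12F, below it. In SC12F, then, the fragment fell under the lowest listed count at all of these ratios, while in PGC11F and SC11F that depended on the ratio taken. In PGC13F the lowest of the ratios would have given 192 reads, above the lowest listed count of 90. That library instead listed an 18-nt sequence with 198 reads, which began at the same position and continued the 17-nt fragment by an A that mismatched the mtDNA (G18A, counted from the 5′ end of the fragment). This sequence was not among the 11, since it does not match exactly. It stood at 0.294 of the 31-nt fragment, close to the 2 other female libraries. It was listed in PGC13F alone:
18-nt sequence from position 2665: tagagaaggttattaggA
Its capital marks the mismatched base. A 16-nt version of the boundary fragment, chrM:2666-2681, was listed only in SC11M, with 80 reads.

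The first base differed between these fragments and the remaining sequences. T (uridine in the RNA) stood first in 60.5% of the reads of the 11 fragments, A in 27.1%, C in 12.4% and G in none. In the remaining 193 sequences T stood first in 2.20% of reads, A in 81.4%, G in 16.0% and C in 0.40%. By library the share of T ran from 50.7% to 100% in the 11 fragments and from 0.789% to 3.52% in the others, so that the ranges were separate in all 12 libraries. The value of 100% was that of SC12F, whose only listed fragment was the 31-nt one. Counted by sequence rather than by reads, 4 of the 11 began with T, 4 with A and 3 with C. Within the run the starting bases alternate between T and A along the mtDNA. The T starts at 2643, 2645 and 2647 held 10522 reads and the A starts at 2644, 2646 and 2648 held 5328, so T began 66.4% of the reads of the run. The alternation means that base and position cannot be told apart in the order described above. At the tenth base, A stood in 46.2% of the reads, C in 45.5% and T in 8.23%.

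Nuclear copies of mtDNA can give rise to the same sequences, so the chromosomes of GRCm39 were searched with up to 1 mismatch. No nuclear match was found for 8 of the 11 fragments, which held 16289 reads. The corresponding count over all sequences was 74 of 204. The 19-nt fragment had 4 nuclear matches with 1 mismatch and none exact. The 17-nt boundary fragment had 1 exact match and 26 with 1 mismatch, and the 16-nt fragment had 3 exact matches and 102 with 1 mismatch. The fragments with nuclear matches were the 3 others, all under 20 nt.

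The 11 fragments together had 852 reads (124 rpm) in PGC11F, 2822 (580 rpm) in PGC11M, 1376 (232 rpm) in PGC12F, 1097 (212 rpm) in PGC12M, 2423 (479 rpm) in PGC13F and 3057 (575 rpm) in PGC13M. In SCs they had 758 reads (133 rpm) in SC11F, 2214 (503 rpm) in SC11M, 113 (19.1 rpm) in SC12F, 1393 (248 rpm) in SC12M, 2121 (316 rpm) in SC13F and 1739 (383 rpm) in SC13M. PGC11M and PGC13M were highest and SC12F was far below the rest. The groups overlapped by cell type and by sex. By day, the E12.5 libraries (19.1 to 248 rpm) all lay below the E13.5 libraries (316 to 575 rpm), and those of E11.5 (124 to 580 rpm) spanned both. As a share of the mito-piRNA reads of each library the days overlapped, at 0.603% to 8.57% at E12.5 and 2.92% to 7.96% at E13.5. In pooled tissue, fewer cells that make a fragment and less of it per cell cannot be told apart.

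By cell type PGCs had 367 ± 201 rpm (SD, n = 6) and SCs 267 ± 174 rpm (SD, n = 6), and matched for sex and day SCs were the higher of the pair in 2 of 6. The difference in mean log2 (rpm + 1), SC minus PGC, was -0.77 (two-sided exact permutation test over 924 arrangements, p = 0.407, adjusted p = 0.610 over 9 comparisons). Without SC12F it was -0.12 (exact permutation p = 0.812), and with missing fragments at the lowest listed count it was -0.33 (exact permutation p = 0.387), so most of the difference rested on SC12F. With levels under 25 rpm set to 0 it was -1.27 (exact permutation p = 0.524), a setting that puts the total of SC12F at 0. By sex the level was 417 ± 162 rpm (SD, n = 6) in males and 217 ± 163 rpm (SD, n = 6) in females, and in 5 of 6 pairs matched for day and cell type the male library was the higher. The difference, male minus female, was 1.36 on the log2 scale (exact permutation p = 0.0606, adjusted p = 0.273). Without PGC13F it was 1.70 (exact permutation p = 0.0173) and without SC13F 1.58 (exact permutation p = 0.0390), both unadjusted, so that the side of the threshold depended on single libraries. Without SC12F it was 0.78 (exact permutation p = 0.117). It was 0.65 with missing fragments at the lowest listed count (exact permutation p = 0.0758) and 0.85 per 1000000 mito-piRNA reads (exact permutation p = 0.182). With the cut-off of 25 rpm, which again puts SC12F at 0, it was 2.38 (exact permutation p = 0.0671). By day the levels were 335 ± 241, 178 ± 107 and 438 ± 113 rpm (SD, n = 4 each) at E11.5, at E12.5 and at E13.5 (exact permutation test of F over 34650 arrangements, F = 2.04, p = 0.156, adjusted p = 0.468). Per 1000000 mito-piRNA reads F was 0.321 (exact permutation p = 0.796).

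Levels were also set against the 5′ end of the same rRNA, for which 20 sequences that began at position 1094, with 113114 reads, served. The ratio of 3′-end to 5′-end reads was 0.123 in PGC11F, 0.245 in PGC11M, 0.194 in PGC12F, 0.180 in PGC12M, 0.186 in PGC13F and 0.192 in PGC13M. It was 0.134 in SC11F, 0.202 in SC11M, 0.0284 in SC12F, 0.189 in SC12M, 0.210 in SC13F and 0.120 in SC13M. Thus 3′-end fragments were fewer than 5′-end fragments in 12 of 12 libraries, and SC12F lay below the others.

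In SC12F only the 31-nt fragment was listed, with 113 reads against a lowest listed count of 87. At the median proportions of the other libraries its 29-nt fragment would have had 75.7 reads and its 32-nt fragment 65.0, both under that lowest listed count. With the 31-nt fragment alone over the 5′-end reads, SC12F was still lowest at 0.0284, next to SC13M at 0.0291, and the highest value was 0.0590 in PGC11M. The ratio did not pass the threshold by cell type (0.187 ± 0.0388 in PGCs and 0.147 ± 0.0690 in SCs, SD, n = 6, exact permutation p = 0.284, adjusted p = 0.510). By sex it was 0.188 ± 0.0405 in males and 0.146 ± 0.0671 in females (SD, n = 6, exact permutation p = 0.266, adjusted p = 0.510), and by day F was 0.544 (exact permutation p = 0.754, adjusted p = 0.777). On the log2 scale the differences were -0.56 by cell type and 0.57 by sex, and without SC12F they were -0.13 and 0.15. With missing sequences at the lowest listed count the ratio by sex turned to -0.0724 (exact permutation p = 0.712).

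The mean 5′ position, weighted by reads, describes how far the fragments reached into the rRNA from its end. In females it was 2647.35 in PGC11F, 2648.02 in PGC12F, 2646.45 in PGC13F, 2647.53 in SC11F, 2645 in SC12F and 2648.21 in SC13F. In males it was 2648.54 in PGC11M, 2648.38 in PGC12M, 2648.28 in PGC13M, 2649.98 in SC11M, 2648.82 in SC12M and 2648.89 in SC13M. The 6 male libraries all lay above the 6 female ones. The mean was 2648.81 ± 0.620 (SD, n = 6) in males and 2647.09 ± 1.20 (SD, n = 6) in females. The difference was 1.72 bases, with the listed reads of males starting nearer to the 3′ end on average. In the exact permutation test p was 0.00216, the smallest that 924 arrangements can give, and the adjusted p was 0.0195. Permuted within the 6 pairs matched for cell type and day, p was 0.0312, the smallest that 6 pairs allow, and the adjusted p was 0.250, so that the paired test did not pass the threshold. At that smallest p the adjusted value could pass only if other comparisons of the 9 were low too, so the failure does not decide the question. The 17-nt fragment was listed in more male than female libraries, and the 28-nt, 21-nt and 16-nt fragments in male libraries alone. The 20-nt fragment was listed in 1 female library alone. A fragment missing from a list drops out of that library's mean. Neither test can therefore tell a shift of the 5′ ends by sex from a difference in which fragments were listed.

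The difference was not kept under every choice of fragments. Among fragments ending at position 2675 alone, the difference by sex was 0.28 bases (exact permutation p = 0.530). With each fragment missing from a library set to the lowest count listed there, it was -0.37 bases (exact permutation p = 0.558). That setting gives SC12F 87 reads of the 17-nt fragment where the lowest and median ratios give 32.2 and 42.0. In PGC11F and SC11F it also gives more than both ratios do. In PGC13F it gives fewer, 90 reads against 192 and 250. The 17-nt boundary fragment was listed in 6 of 6 male and 2 of 6 female libraries. In 3 of the 4 female libraries without it, the lowest ratio observed gives a count under the lowest one listed. Of these, PGC11F and SC11F come out above it at the ratio of the matched male library. With the 18-nt sequence of PGC13F counted, the difference was 1.49 bases (exact permutation p = 0.00216), and without SC12F it was 1.302 (exact permutation p = 0.00216). By cell type the mean position was 2647.83 ± 0.798 in PGCs and 2648.07 ± 1.71 in SCs (SD, n = 6, exact permutation p = 0.777, adjusted p = 0.777), and by day F was 0.344 (exact permutation p = 0.744, adjusted p = 0.777). The difference by cell type, SC minus PGC, was 0.24 bases and turned to -0.42 with each fragment counted once, -0.14 without SC11M and -0.04 without PGC13F. It was 0.85 without SC12F (exact permutation p = 0.136) and 0.88 with missing fragments at the lowest listed count (exact permutation p = 0.147). In 5 of 6 matched pairs the SC library had the higher mean position. By day F was 3.77 with missing fragments at the lowest count (exact permutation p = 0.0573) and 2.55 with fragments ending at position 2675 only (exact permutation p = 0.139).

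Each fragment was tested by edgeR's quasi-likelihood test together with all 97 sequences listed in at least 3 libraries. By cell type the test called 2 of the 97 (2.06%), or 0 with a block for libraries matched in sex and day, by sex 0 (0%) and by day 0 (0%). At an unadjusted p under 0.05 it had 9, 4 and 2 sequences, and DESeq2 called 13, 3 and 0. Of the 11 fragments, 8 could be tested, and the 28-nt, 20-nt and 16-nt ones were listed in too few libraries. None of the 8 was called by either tool in any of the 3 comparisons, and none had an unadjusted p under 0.05 in the edgeR fit described. With DESeq2, 1 of the 8 had an unadjusted p under 0.05 by sex, the 21-nt fragment that only male libraries listed, against 18 of the 97. Under other settings of edgeR, 1 of the 8 had an unadjusted p under 0.05 by sex (without PGC12F, without SC13F, or with missing sequences at the lowest listed count) and 1 by day (the last of these settings). Over all tested sequences these fits had 5, 5 and 17 such sequences by sex and 13 by day.

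All 8 tested fragments had a lower fitted level in SCs than in PGCs, with a median log2 difference of -0.77, while over the 97 sequences the median was 0.04 and 49 (50.5%) were higher in SCs. The direction was not the same by every measure. The mean level of the 19-nt fragment was 31.8 ± 12.0 rpm in PGCs and 31.8 ± 19.3 rpm in SCs (SD, n = 6), and SCs were the higher in 4 of 6 matched pairs. That of the 17-nt fragment was 25.2 ± 26.5 rpm in PGCs and 25.8 ± 23.1 rpm in SCs (SD, n = 6). With missing sequences at the lowest listed count, 2 of the 8 were higher in SCs, and with the matched pairs as a block 1 was. Without SC12F, or without PGC12F, 2 of the 8 were higher. Without SC11F, or without SC12M, 1 was, and without PGC11M 1 of the 7 then tested was. With any other single library left out, all tested fragments stayed lower. By sex, the 21-nt fragment was listed in male libraries alone, so its direction was fixed by being tested at all. The other 7 had a higher fitted level in males, as did 72 of the 97 sequences (74.2%), and their median log2 difference was 1.00 against 0.94 over the 97. These 7 include the 17-nt fragment, which reached the minimum of 3 libraries only through male ones, since 2 of 6 female libraries listed it. Its direction thus adds no support. The fragments overlap in sequence and share an end, so they are not independent of each other, and no difference in level was called for any of them. For the 31-nt fragment the log2 difference was -0.50 (SE 0.66) by cell type and 0.86 (SE 0.68) by sex, with edgeR adjusted p of 1.00 and 0.891. For the 17-nt boundary fragment the log2 difference by sex was 3.27 (SE 2.29, edgeR adjusted p = 0.827), a value set by few libraries. It was 8.10 without PGC12F and 8.20 without SC13F, the 2 female libraries that list it, with edgeR adjusted p of 0.539 and 0.473. With missing sequences at the lowest listed count it was 1.21 (edgeR adjusted p = 0.110).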

How the data were processed

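Small RNAs of 12 libraries were sequenced by the authors, who trimmed adapters with Trim Galore (minimum adapter overlap of 1 base, with an adapter beginning with A, so that a final A of a read can be removed), collapsed identical reads, dropped sequences under 10 CPM and aligned the rest with Bowtie. They kept sequences matching the mtDNA and piRNA-IPdb, a database of PIWI-bound piRNAs, each with up to 1 mismatch. The deposited values are raw read counts per unique sequence, not normalized.

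Sequences were placed here on the mtDNA and the chromosomes of GRCm39 with GENCODE genes, with 0 reads for any sequence that a library did not list. Reads per 1000000 (rpm) used the total reads the study gives per library after its cut-off, 4405948 to 6888195 reads, so that the lowest counts listed were at 14.6 to 17.8 rpm. Totals, ratios (log2, pseudocount of 1) and mean 5′ positions were compared by two-sided exact permutation tests, Benjamini-Hochberg adjusted over 9 comparisons at a threshold of 0.05. For single sequences, edgeR's quasi-likelihood test was fitted with additive terms for day, sex and cell type and adjusted over the 97 sequences in at least 3 libraries. It was tested on simulated data.

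The fragments, tests and alternatives were chosen with earlier results of these data known. All 11 fragments were named by the rule. Alternatives tried were other denominators and normalizations, DESeq2, pseudocounts, a cut-off of 25 rpm, other minimums of libraries, missing sequences at the lowest listed count, fragments ending at the last base only, unweighted positions, pairs, and leaving out each library. Those added after seeing the data were missing fragments at the lowest count for the mean position, the 31-nt fragment alone, fragments in at least 8 libraries, and counting the 18-nt sequence. Python 3.11.15, numpy 2.4.6, numba 0.67.0, R 4.3.3, edgeR 4.0.16 and DESeq2 1.42.0 were used.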

Additional observations from a re-analysis of the deposited data

Results flagged for a closer look

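In groups of 4 libraries (by day) and 6 libraries (by cell type or sex), a library was singled out when its gap to the nearest other exceeded Dixon's 95% critical value. Of 70 groups tested, 6 had such a library, and chance alone singles out about 1 in 20 groups. SC12F accounted for 5 of the 6, all among the libraries of E12.5. Its total of the 11 fragments was 19.1 rpm, its ratio of 3′-end to 5′-end reads was 0.0284, and the 33-nt, 32-nt and 19-nt fragments, which it did not list, were taken as 0 rpm. These 0 values stand for any level under its lowest listed one, 14.7 rpm, so the gaps behind them are upper bounds. All 5 share 1 source, since SC12F listed only the 31-nt fragment. SC11M stood apart among the male libraries with a mean 5′ position of 2649.98, and it listed the most fragments of any library, 10 of the 11.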

How the results depend on the processing

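Of 214 values under the alternatives, 190 kept their direction and their side of the threshold, or stayed within 1.5 times a count. The difference of the total by sex ranged from 0.78 to 1.70 on the log2 scale when libraries were left out 1 at a time, passing the unadjusted threshold without PGC13F or SC13F. The ratio by sex turned to -0.0724 with missing sequences at the lowest listed count. The mean position by sex fell short of the threshold at 0.28 bases with fragments ending at position 2675 only and turned to -0.37 with missing fragments at the lowest count, an alternative added after seeing the data. It was 1.302 to 1.94 bases with single libraries left out, and 1.62 over fragments listed in at least 8 libraries, which keeps the 17-nt one through the 6 male libraries and is thus no separate check. Within pairs it had an exact permutation p of 0.0312, the smallest that 6 pairs allow, but an adjusted p of 0.250, past the threshold only unadjusted. The mean position by cell type turned to -0.42 when each fragment was counted once and ran from -0.14 to 0.85 with single libraries left out, below 0 without SC11M and without PGC13F (-0.04). Sequences called by cell type numbered 0 with TMM factors, with a minimum of 6 libraries, with missing sequences at the lowest count and with pairs as a block, 13 with DESeq2, and 0 to 2 with single libraries left out. DESeq2 called 3 sequences by sex. In 52 alternative fits no fragment of the 11 was called, and the lowest adjusted p was 0.110. Where these changes have a cause beyond the setting itself, the cause was not tested. The lowest level seen in each list, 14.6 to 17.8 rpm, limits every statement about fragments that a library lacks. It is an upper bound of the cut-off, which may lie below it. With 1 library per condition there is no replicate error. Pairs are libraries matched in sex and day, or in cell type and day, and apart from this adjusted p and the calls by cell type they moved no value across the threshold.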
